A study of Mus musculus with 8 samples.

Results

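The genes described here are 10 markers and regulators of macrophages (Cx3cr1, C1qa, C1qb, C1qc, Lyz2, Cd163, Cd68, Cd14, Csf1r and Csf1), read in 8 mouse melanomas on Illumina bead arrays, 1 array per tumour. All probes annotated to these genes were taken from the deposited table of raw intensity, with a detection p for each probe and array. Of the 10 genes, 8 had at least 1 named probe, giving 8 of the 10461 genes measured, while Cd68 and Csf1r had none and are not analysed here. The 8 genes had 11 probes, of which 9 were detected on all 8 arrays and 2 on none. The genes had been picked with their differences between the resistant and control tumours known, so those differences are given below as a description, with no test.

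All tumours grew in FVB/n animals carrying DCT-TVA, in which the Dct promoter restricts the avian virus receptor TVA to melanocytes, and Ink4a/Arf lox/lox, a tumour suppressor locus that Cre deletes. The 7 resistant tumours carried avian leukosis viruses for Tet-off and TRE-NRASQ61R-IRES-Cre, injected at birth, so that an oncogenic NRAS and Cre were made until doxycycline food, begun at a volume of 1000 mm3, shut them off (NRASQ61R Off). The 1 control tumour had NRASQ61R On, and its description names an NRAS-IRES-Cre construct with no Tet-off element, so which virus it received is not known from the labels. The virus targets melanocytes, whereas macrophages of a tumour come from the host. No label ties each of the 7 tumours to an animal of its own, so the p-values reflect how far these samples scatter, which may be in part technical.

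Macrophages take up dying cells and debris and are maintained by signalling through the receptor CSF1R, whose ligands are CSF1 and IL-34. They are the main source of C1q, a protein built from A, B and C chains that starts the classical complement pathway and also marks debris for uptake. CX3CR1 binds fractalkine and marks monocytes and tissue macrophages, CD14 presents bacterial lipid to Toll-like receptor 4, lysozyme breaks bacterial cell walls, and CD163 takes up haemoglobin bound to haptoglobin. In bulk tumour RNA, fewer cells of a type and less RNA per cell cannot be told apart.

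The arrays detected between 11821 and 12851 probes in resistant tumours and 12225 in the control, of 25697 in all, and levels below are background-corrected and quantile-normalized log2 intensities. The number of arrays limits the precision. A probe counted as detected at a detection p under 0.05. Levels of different probes are not set against each other. The Nras probe, designed on the mouse gene, read 11.66 to 12.23 in resistant tumours and 11.87 in the control, and whether it reads the viral transgene is not known. Of 9 melanocyte markers with a probe, 6 were detected on no array (Mitf, Tyr, Tyrp1, Dct, Mlana and Pax3). Of the other 3, Ednrb was detected in all 7 resistant tumours and the control, Slc45a2 in all 7 resistant tumours and not the control, and Pmel in 2 resistant tumours and not the control. Resistant tumour 1 stood apart in 2 lists of markers of other cell types: skeletal muscle markers (15 genes) summed to 58629 linear units there, 502 to 12508 in the other resistant tumours and 618 in the control, and lymphocyte markers (8 genes) to 5533 there, 302 to 832 in the others and 975 in the control. Resistant tumour 6 had the lowest sums of erythrocyte markers (233, against 6047 to 24149 in the others and 10784 in the control) and mast cell markers (1845, against 5714 to 29906 in the others and 12913 in the control). Values without tumour 1 are given where they bear on a result.

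The promoters of 2 C1q genes are shown because the 3 chains had similar orders of tumours, as described below. They come from RefSeq (GRCm38.p6), run from 250 bases before to 50 after the start site, and lie on the minus strand at chr4:136886151-136886450 (C1qb) and chr4:136892865-136893164 (C1qc). Capitals mark GAGGAA or its reverse complement TTCCTC, the core bound by PU.1, a transcription factor of myeloid cells.
C1qb: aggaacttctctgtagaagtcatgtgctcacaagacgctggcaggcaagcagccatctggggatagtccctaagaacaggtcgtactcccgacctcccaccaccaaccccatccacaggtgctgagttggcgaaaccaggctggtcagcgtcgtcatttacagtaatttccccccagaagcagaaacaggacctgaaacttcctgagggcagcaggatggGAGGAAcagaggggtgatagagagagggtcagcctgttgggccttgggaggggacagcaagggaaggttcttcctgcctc
C1qc: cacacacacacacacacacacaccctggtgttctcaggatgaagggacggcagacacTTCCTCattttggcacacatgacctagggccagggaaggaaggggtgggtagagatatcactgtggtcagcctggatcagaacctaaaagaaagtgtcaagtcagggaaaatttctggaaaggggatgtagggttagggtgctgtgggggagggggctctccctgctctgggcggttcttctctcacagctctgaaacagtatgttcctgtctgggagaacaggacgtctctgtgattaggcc
The match began at position -30 from the start site in C1qb and at position -193 in C1qc. Searched on both strands, the motif was present in 3 of the 7 members with a promoter in the table (C1qb, C1qc and Cd68) and in 28.3% of all 32851 promoters. A match describes the letters only. The table held no promoter for C1qa, Cd14 and Csf1r.

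The 3 C1q chains read higher in every resistant tumour than in the control. C1qa, the A chain, read 11.45, 10.88, 10.59, 10.39, 10.66, 11.13 and 10.69 in resistant tumours 1 to 7, against 9.59 in the control. C1qb, the B chain, read 12.56, 12.23, 11.83, 11.74, 11.98, 12.19 and 12.11 in resistant tumours 1 to 7, against 11.27 in the control. C1qc, the C chain, read 12.07, 11.79, 11.48, 11.47, 11.71, 12.06 and 11.93 in resistant tumours 1 to 7, against 10.50 in the control. For all 3 genes resistant tumour 1 was the highest and tumour 4 the lowest of the 7, tumours 5, 3 and 4 followed each other in that order at the bottom, and no resistant tumour reached down to the control. C1qa averaged 10.83 ± 0.36 in resistant tumours and 9.59 in the control, a difference of 1.24 (2.36-fold). C1qc differed by 1.29 (2.44-fold) and C1qb by 0.82 (1.76-fold), with SDs among resistant tumours of 0.25 and 0.27. The mean of the 3 genes was 1.11 above the control (2.17-fold), ranging over single tumours from 0.75 (1.68-fold) to 1.57 (2.97-fold). On the raw scale the C1qa probe read 1413 to 2553 intensity units in resistant tumours and 1009 in the control. The raw C1qc range was 2577 to 4219 in resistant tumours, with 1862 in the control. Raw C1qb was 3278 to 5329 in resistant tumours and 3169 in the control, so tumour 3, its lowest, was close to the control before normalization. Under median scaling, which moves the median difference of all genes by -0.20, the C1qb difference was 0.47 and the C1qc difference 0.96. The tumour with the highest C1q levels was also the one with the highest muscle and lymphocyte marker sums given above, and their part in its C1q levels was not tested; without tumour 1 the differences were 1.14 for C1qa, 0.74 for C1qb and 1.24 for C1qc.

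**Figure D1:**
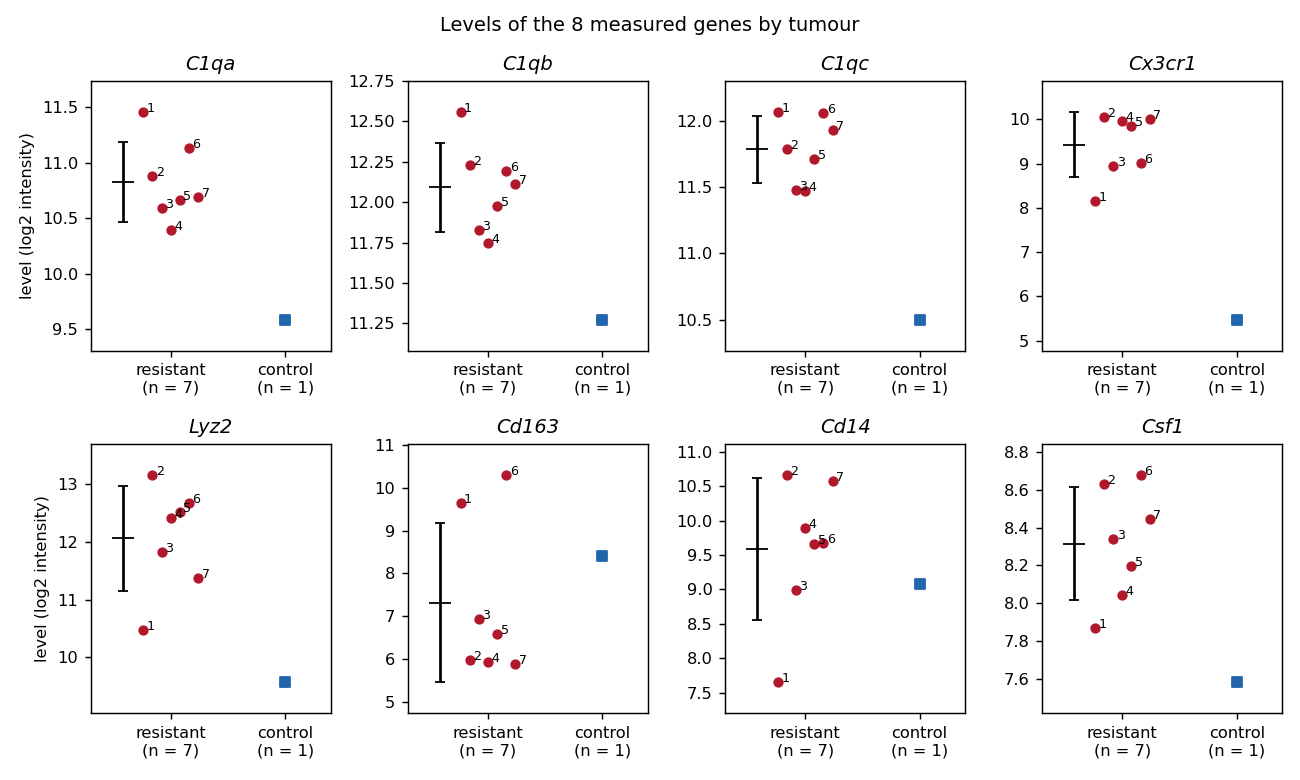
Log2 level (y axis) of each member gene in the 7 resistant tumours (left in each panel, points numbered by tumour, bars showing mean ± SD) and in the control tumour (right). C1qa, C1qb, C1qc, Cx3cr1, Csf1 and the Lyz2 probe used lie above the control in all 7 resistant tumours, while Cd163 and Cd14 lie on both sides of it.

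Cx3cr1, the fractalkine receptor, showed the largest difference of the 8 genes. It read 8.17, 10.06, 8.96, 9.96, 9.86, 9.01 and 10.01 in resistant tumours 1 to 7, against 5.47 in the control. Tumours 2, 4, 5 and 7 were close to each other, tumours 3 and 6 lower, tumour 1 lowest, and all 7 were above the control. Raw intensity was 329 to 1153.8 units in resistant tumours and 106.9 in the control. The control was only just detected by its detection p-value (0.0213), and its log2 level lay close to the lowest detected on that array, 5.26. The mean was 9.43 ± 0.73 (SD, n = 7) in resistant tumours, 3.96 above the control (15.5-fold), and single tumours ranged from 6.45-fold to 23.99-fold. Without background correction, and with the deposited normalized values, the difference was 2.89. Its ligand gene Cx3cl1, fractalkine, read 8.71 to 10.32 in resistant tumours and 9.17 in the control, with 6 of 7 above (limma adjusted p = 0.797).

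Csf1, the growth factor that macrophages depend on, read 7.87, 8.63, 8.34, 8.04, 8.20, 8.68 and 8.45 in resistant tumours 1 to 7, against 7.58 in the control. Every resistant tumour was above the control, with tumour 1 nearest to it. Raw intensity was 280.2 units in tumour 1, up to 492.2 in the other resistant tumours and 278.3 in the control, so tumour 1 was close to the control before normalization. The mean was 8.32 ± 0.30 in resistant tumours, a difference of 0.74 (1.67-fold). Il34, the other CSF1R ligand gene, read 7.38 to 9.42 in resistant tumours and 8.07 in the control, with 5 of 7 above (limma adjusted p = 0.952).

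Cd14, the lipopolysaccharide co-receptor, lay on both sides of the control. It read 7.65, 10.67, 8.99, 9.89, 9.66, 9.67 and 10.57 in resistant tumours 1 to 7, against 9.08 in the control. Tumours 1 and 3 were below the control and the other 5 above, tumours 2 and 7 most. The mean was 9.59 ± 1.03 in resistant tumours, a difference of 0.51 (1.42-fold), and 0.83 without tumour 1, 0.33 without tumour 2 or 0.35 without tumour 7. Under median scaling the difference was 0.22.

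Cd163, the haemoglobin scavenger receptor, divided the resistant tumours. The detected probe read 9.64, 5.96, 6.93, 5.92, 6.58, 10.30 and 5.87 in resistant tumours 1 to 7, against 8.41 in the control. Tumours 1 and 6 were above the control and the other 5 at least 1.48 below it, with no tumour between 6.93 and 9.64. The highest and the lowest resistant tumour were 21.6-fold apart. The SD of 1.87 was larger than that of 99.4% of the 7355 genes detected in all 7 resistant tumours, whose median SD was 0.35. Tumours 2, 4 and 7 lay close to the lowest levels detected on their arrays (5.31, 5.24 and 5.36), which bounds how finely this fold and SD are known. Raw intensity was 107.6 to 1348.9 units in resistant tumours and 460.9 in the control. The mean difference from the control was -1.09. The second Cd163 probe was detected on no array. Erythrocyte markers, which belong to the cells whose haemoglobin CD163 clears, were lowest in tumour 6 and summed to 7144 in tumour 1, within the range of the others, and their part was not tested.

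Lyz2, the lysozyme M gene of macrophages and granulocytes, depended on the probe. The promoter-proximal sequences of Lyz2 and its neighbour and paralog Lyz1 show how alike the genes are near the start site. The rest of the genes was not compared. These are the last 150 bases of the RefSeq windows on the minus strand, at chr10:117282223-117282372 (Lyz2) and chr10:117292819-117292968 (Lyz1), with capitals marking the bases that differ.
Lyz2: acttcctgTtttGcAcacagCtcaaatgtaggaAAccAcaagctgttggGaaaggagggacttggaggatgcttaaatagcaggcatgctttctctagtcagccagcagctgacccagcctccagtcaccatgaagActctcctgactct
Lyz1: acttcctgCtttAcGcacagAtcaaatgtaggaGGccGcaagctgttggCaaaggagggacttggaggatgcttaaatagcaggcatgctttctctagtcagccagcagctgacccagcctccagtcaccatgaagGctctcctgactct
Of 150 bases, 141 were identical (94.0%) and 9 differed. Whether any lysozyme probe also reads the other gene was not tested. The probe used (ILMN_1252076), the detected one with the highest mean, read 10.47, 13.15, 11.82, 12.40, 12.52, 12.66 and 11.38 in resistant tumours 1 to 7, against 9.57 in the control. The other detected probe (ILMN_2939681) read 9.65, 11.56, 10.34, 10.57, 11.01, 10.996 and 12.08 in resistant tumours 1 to 7, against 10.52 in the control. On the first probe every resistant tumour was above the control, whereas on the second tumours 1 and 3 were below it. The difference was 2.49 (5.61-fold) on the first, with a mean of 12.06 ± 0.91, and 0.36 (1.29-fold) on the second, with a mean of 10.89 ± 0.80. Over the 7 resistant tumours the 2 probes correlated at r = 0.47 (exact permutation p = 0.286) and rho = 0.43 (exact permutation p = 0.354). Lyz1 read 13.34 to 14.75 in resistant tumours and 13.84 in the control on its detected probe. The third Lyz2 probe and the other 2 Lyz1 probes were detected on no array.

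**Figure D2:**
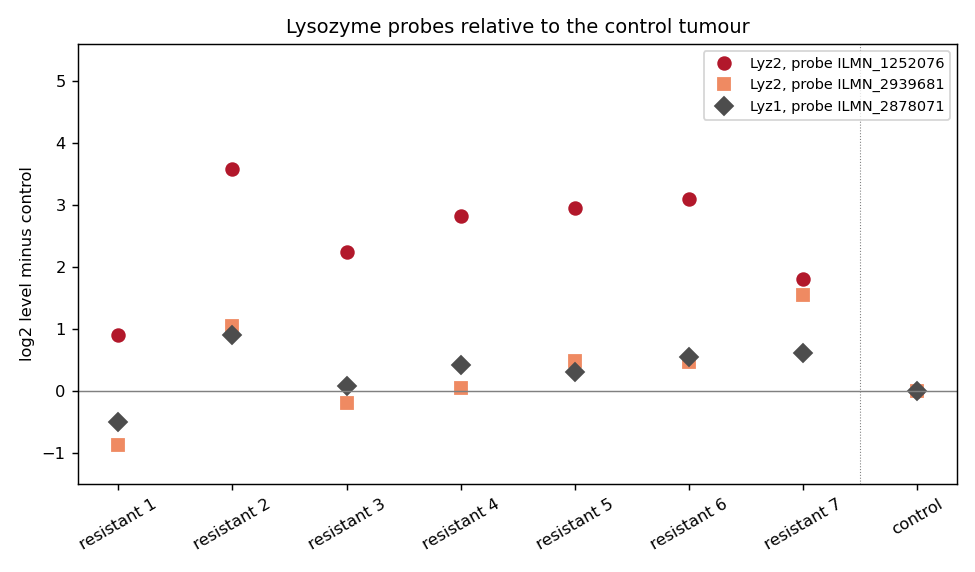
Log2 level minus the control's (y axis) of the 2 detected Lyz2 probes (circles and squares) and the detected Lyz1 probe (diamonds) in resistant tumours 1 to 7 and the control, which is 0 for every probe (x axis). Of the 3 probes, only ILMN_1252076 puts all 7 resistant tumours above the control, with a mean difference of 2.49, against 0.36 for ILMN_2939681.

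Counted together, 6 of the 8 members were above the control in all 7 resistant tumours, as were 13.3% of the 10461 genes, and 0 were below it in all 7, as were 17% of genes. The members were picked from this contrast, so nothing is read from the 6. By single tumour, tumour 1 had 5 members at least 2-fold above the control (5.13% of all genes were), tumour 2 had 6 (6.14%), tumour 3 had 3 (7.7%) and tumour 4 had 2 (6.68%). Tumour 5 had 4 (6.59%), tumour 6 had 6 (11.6%) and tumour 7 had 5 (5.02%). Cx3cr1 was among them in every tumour, and Lyz2, on the probe used, in all but tumour 1. With Lyz2 read by its other detected probe, 5 of the 8 were above the control in all 7, and the counts at least 2-fold above were 2, 1, 3 and 5 in tumours 3, 4, 5 and 6 and as before in the other 3. The member at least 2-fold below the control was Cd14 in tumour 1 (5.28% of genes) and Cd163 in tumour 2 (8.1%), tumour 3 (9.31%), tumour 4 (8.68%), tumour 5 (9%) and tumour 7 (6.51%), with none in tumour 6 (13.2%).

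**Figure D3:**
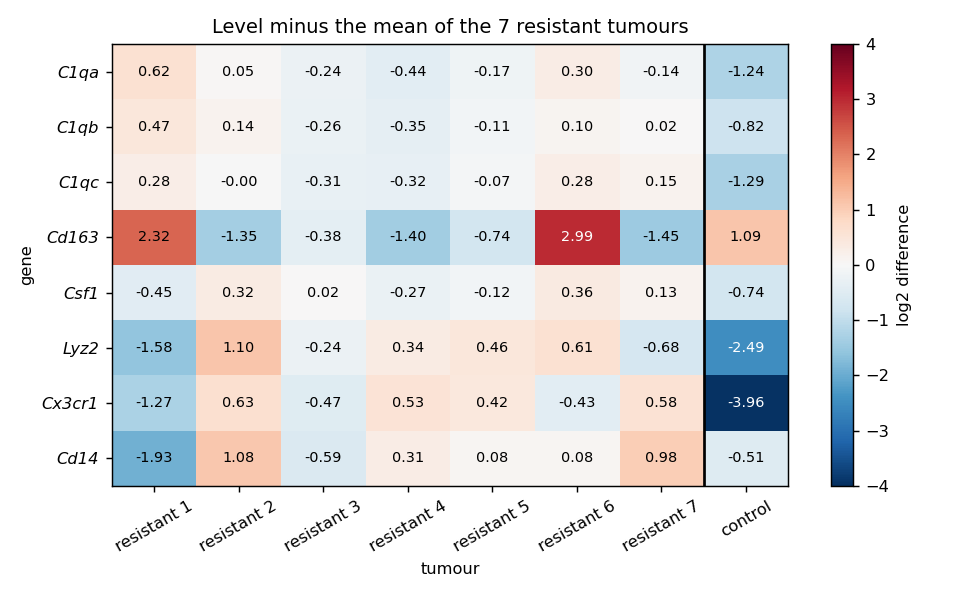
Deviation of each member gene from its mean over the 7 resistant tumours, in log2 units (colour and printed number), for resistant tumours 1 to 7 and, right of the line, the control. Tumour 1 is high for the C1q genes and Cd163 and low for Cx3cr1, Lyz2, Cd14 and Csf1, and tumour 6 shares the high Cd163.

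Covariation among the 8 genes within the resistant tumours does not use the control, and was tested over all 28 pairs with an exact two-sided permutation test, whose smallest possible p is 0.000397. Pearson's r passed after Benjamini-Hochberg adjustment in 2 pairs, with 13 positive and 15 negative coefficients in all, and 6 pairs had an unadjusted p under 0.05. C1qa and C1qb, 2 chains of the same protein, correlated at r = 0.94 (exact permutation p = 0.000595, adjusted p = 0.00833) and rho = 0.96 (exact permutation p = 0.00278, adjusted p = 0.0259). Without the 2 tumours farthest from the median of C1qa, r was 0.95, and leaving out any 1 tumour gave 0.87 to 0.97. C1qc correlated with C1qa at r = 0.85 (exact permutation p = 0.0131, adjusted p = 0.0917) and rho = 0.96 (adjusted p = 0.0259). It correlated with C1qb at r = 0.88 (exact permutation p = 0.00893, adjusted p = 0.0833). Without tumour 7, C1qc with C1qa passed at r = 0.94 (adjusted exact permutation p = 0.0259).

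Cx3cr1 and Cd14, both surface receptors of monocytes and macrophages, formed the other pair, at r = 0.92 (exact permutation p = 0.000595, adjusted p = 0.00833) and rho = 0.96 (adjusted p = 0.0259). Both were lowest in tumour 1 and highest in tumours 2 and 7. Without the 2 tumours farthest from the median of Cx3cr1, r was 0.61, and leaving out any 1 tumour gave 0.79 to 0.96. Over all alternatives the adjusted exact permutation p ranged from 0.00833 to 0.277 for Cx3cr1 with Cd14 and to 0.179 for C1qa with C1qb. Neither pair passed with 6 tumours where tumour 1, 3 or 4 was left out (adjusted exact permutation p for Cx3cr1 with Cd14 and for C1qa with C1qb: 0.277 and 0.179 without tumour 1, 0.117 for both without tumour 3, 0.0583 for both without tumour 4). C1qa with C1qb also did not pass without tumour 5 (adjusted exact permutation p = 0.0778) or under median scaling (adjusted exact permutation p = 0.133). With 6 tumours the smallest possible p is 0.00278.

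Lyz2 with Cd14 depended on the Lyz2 probe and on tumour 7. On the probe used r was 0.70 (adjusted exact permutation p = 0.267), and 0.98 without tumour 7 (adjusted exact permutation p = 0.0486). On the other detected probe, an alternative chosen after seeing the data, r was 0.92 (adjusted exact permutation p = 0.037). No pair of a C1q gene with Cx3cr1 or Cd14 passed. Cx3cr1 and C1qa had r = -0.73 (adjusted exact permutation p = 0.234), with rho = -0.25, and r was -0.36 without tumour 1. Cd14 and C1qa had r = -0.57 (adjusted exact permutation p = 0.329), with rho = -0.14, and r was 0.18 without tumour 1. C1qa and Csf1 had r = -0.06 over 7 tumours (adjusted exact permutation p = 0.939). Without tumour 1 it was 0.91, which did not pass (adjusted exact permutation p = 0.179). Among pairs of members, no pooled r is printed for Cd163, whose tumours fall into 2 separate sets. Its pairs are in the counts above, and none passed with all 7 tumours. With all 7, the Cd163 pairs with Cx3cr1 and C1qa are among those with an unadjusted exact permutation p under 0.05. With tumour 6 left out, the Cd163 pairs with Cx3cr1 and with Cd14 passed (adjusted exact permutation p = 0.0389 for both). Tumour 1 was then the only tumour in the high set.

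**Figure D4:**
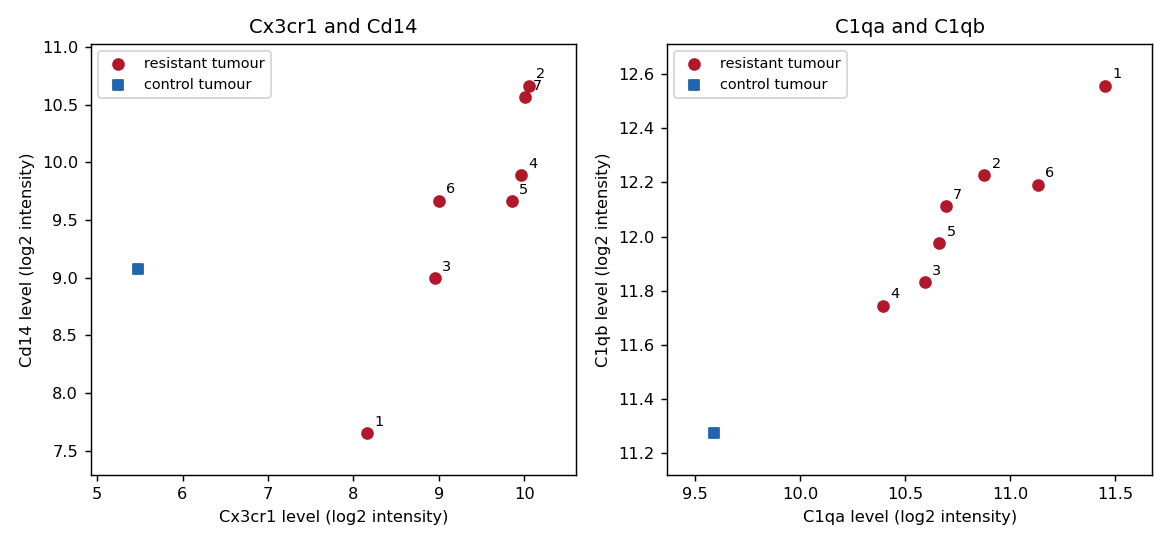
Levels of pairs of member genes in the 7 resistant tumours (numbered points) and the control, both axes in log2 intensity. C1qa and C1qb are correlated (r = 0.94), as are Cx3cr1 and Cd14 (r = 0.92), and tumour 1 is at opposite ends of these pairs.

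By likeness across the 7 resistant tumours (Pearson's r over 7 points that share arrays, among 7251 or 7253 other genes detected in all 7, given as a description), the genes closest to the mean of the C1q genes were P2ry6, a nucleotide receptor (r = 0.99), Daglb, a lipase (0.97), Rasa1, a RAS GTPase-activating protein (0.95), Klhl6 (0.95), Cdk10 (0.95) and Plekha3 (0.94). P2ry6 read 10.75 to 11.60 in resistant tumours and 11.21 in the control, so it tracked C1q among resistant tumours without the offset from the control. Klhl6 read 8.999 to 9.94 in resistant tumours and 8.52 in the control. Closest to Cx3cr1 were Col18a1, a basement membrane collagen (0.99), Gpr183, an oxysterol receptor (0.98), Ryk, a Wnt receptor (0.98), and Cspg4, a proteoglycan of pericytes and melanoma cells (0.97). Closest to Cd14 were Gpr183 (0.97), Fcrls (0.97), Lyz1 (0.97) and Itgav, an integrin chain (0.97). Fcrls, a mouse macrophage and microglia gene, read 5.602, 11.96, 9.63, 11.76, 10.38, 10.85 and 12.31 in resistant tumours 1 to 7, against 7.99 in the control. It was thus lowest in tumour 1, the tumour with the most C1q. Closest to Cd163 were Fcgrt, the neonatal Fc receptor, Hfe, an iron regulator, Rnf14 and Lypla2 (each 0.98), with tumours 1 and 6 highest in each. These r pool the 2 separate sets of Cd163 tumours, and no r within a set is given. Closest to Lyz2, on the probe used only, were Porcn (0.96), Mfsd11 (0.95), Lrrc8a (0.95) and Tnfrsf1a (0.94). Closest to Csf1 were Zfp62 (0.96), Trappc12, Rras and Nfat5 (0.93 each).

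Genes that are not members, from 19 lists of macrophage, complement and other cell type genes (273 genes, 198 measured), were tested over all 10461 genes with limma. None passed in either direction (0 higher and 0 lower at an adjusted p under 0.05, against 0.00956% and 0.21% of all genes), and at an unadjusted p under 0.05, 5 were higher and 16 lower (2.86% and 5.35% of all genes). The smallest limma adjusted p was 0.0665, for the neutrophil receptor gene Cxcr2, at 4.43 to 5.25 in resistant tumours and 6.82 in the control, detected in 1 of 7 resistant tumours. With 1 control, the spread in this test (6 residual degrees of freedom) is that of the resistant tumours alone.

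Other macrophage markers went both ways. Of 24 measured of 28, 6 were above the control in all 7 resistant tumours and 4 below in all 7. Over all genes these shares were 13.3% and 17%. The markers had a median difference of 0.19 against -0.02 for all genes. Lgmn, the lysosomal protease legumain, read 12.56 ± 0.24 in resistant tumours and 11.60 in the control, 0.96 higher (limma adjusted p = 0.397), and Adgre1, which encodes F4/80, read 9.21 ± 0.25 in resistant tumours and 8.30 in the control, 0.92 higher (limma adjusted p = 0.436). Pf4, a platelet and macrophage chemokine, read 9.11 ± 0.70 in resistant tumours and 11.002 in the control, a difference of -1.89 (limma adjusted p = 0.51). The other 4 above in all 7 were the folate receptor gene Folr2 (1.07), the sialic acid receptor gene Siglec1 (1.08), Stab1 (0.75) and the Fc receptor gene Fcgr3 (0.40), and the other 3 below were Fcgr1, the high-affinity Fc receptor (-1.34), Ctss, cathepsin S (-1.08), and the scavenger receptor gene Marco (-0.43), with limma adjusted p from 0.531 to 0.823. These 7 were named after their values were seen, and Marco was detected in only 3 of the 7 resistant tumours. Tumour 1 was the highest of the 7 in 13 of the 24 markers, and the list summed to 62403 linear units in tumour 1, 32216 to 36523 in the other resistant tumours and 38602 in the control. Being highest in tumour 1 was not particular to these markers, as it held for 15 of 15 skeletal muscle and 7 of 8 lymphocyte markers. The share over all genes was not computed. By the mean log2 level, in which each of the 24 genes counts alike, tumours 1, 5, 6 and 7 (9.34, 8.89, 8.90 and 8.91) were above the control (8.84), and tumours 2, 3 and 4 (8.80, 8.71 and 8.64) below it. The 5 measured microglia markers, of 7, had a median difference of 0.31, with 0 above or below in all 7, and summed to 1569 in tumour 1, 2340 to 6066 in the others and 3559 in the control. Of 6 measured monocyte markers, of 11, 0 were on one side in all 7, with a median difference of 0.09.

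**Figure D5:**
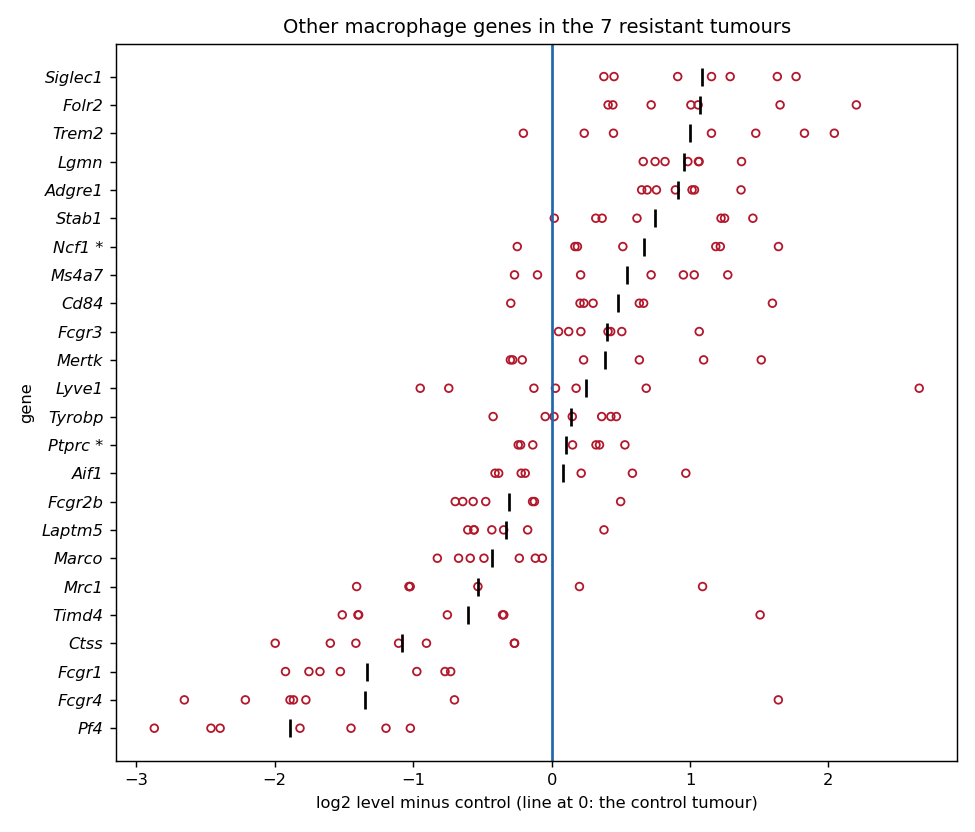
Difference from the control (log2 units, x axis) of each measured macrophage marker in the 7 resistant tumours (circles), with the mean (black tick) and the control at 0. An asterisk marks a gene not detected in the control, and 6 of the 24 genes have all 7 resistant tumours above 0 and 4 have all below.

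The other complement genes lay on both sides of the control. Beside the counts below, 13.3% of all genes were above it in all 7 resistant tumours and 17% below. In the C1 complex and classical pathway list, 1 of 10 measured genes was above the control in all 7 resistant tumours and 2 below, with a median difference of 0.00. C2, the protease that follows C1 in the pathway, was the 1 above, at 11.45 ± 0.73 in resistant tumours and 10.69 in the control (limma adjusted p = 0.828). Cd93, a receptor once taken for a C1q receptor, read 9.79 ± 0.94 in resistant tumours and 12.15 in the control, a difference of -2.36 (limma adjusted p = 0.536), and C1s2, a C1 protease, differed by -1.10 (limma adjusted p = 0.654). Tumour 3, near the bottom for C1q, was the highest of the 7 in 6 of the 10 genes of this list, and tumour 1 in 0. The share of all genes highest in each tumour was not computed. In the C3, alternative and terminal list, 2 of 15 measured were above in all 7 and 1 below, with a median difference of -0.01. Vsig4, a complement receptor of tissue macrophages, was detected in all 7 resistant tumours and not in the control, at least 1.47-fold higher (limma adjusted p = 0.537). Vtn, vitronectin, was likewise at least 1.57-fold higher (limma adjusted p = 0.74), and C8a, detected in the control only, at least 1.41-fold lower (limma adjusted p = 0.466). These bounds compare the brighter group with the detection limit of the arrays where the gene was not detected.

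In the list of CSF and fractalkine genes, 1 of 14 measured was above the control in all 7 and 3 below, with a median difference of -0.09. For this list and those that follow, the shares over all genes were 13.3% above and 17% below. The 1 above was Cebpa, a myeloid transcription factor named after its value was seen, which was detected in 4 of the 7 resistant tumours and not in the control (limma adjusted p = 0.777). The 3 below were Adam17, a protease that sheds surface proteins (9.69 ± 0.34 in resistant tumours and 10.51 in the control, limma adjusted p = 0.607), Csf3r, the G-CSF receptor (difference -0.93, limma adjusted p = 0.622), and Csf2rb2, a beta chain of the IL-3 receptor (difference -1.30, limma adjusted p = 0.687). Of 15 CD14 and Toll-like receptor genes, 2 were above and 5 below, with a median of -0.18, and the adaptor gene Tirap (-1.06, limma adjusted p = 0.443), the kinase gene Irak1 (-0.58) and the ubiquitin ligase gene Traf6 (-0.42) were below in all 7. The others, named after their values were seen, were Tlr1 (-1.31) and Ly96, the partner of Toll-like receptor 4 (-0.37), below, and Tlr7 (0.46) and the adaptor gene Ticam1 (0.36) above. Of 15 lysosome and phagosome genes, 0 were above and 4 below, with a median of -0.27, including Acp5, the tartrate-resistant acid phosphatase (-1.20, limma adjusted p = 0.423), and the cathepsin gene Ctsl (-1.11), together with Ctsd (-0.41) and Grn (-0.28), both named after their values were seen, while Ctsb was below in 6 of 7 (-0.53). Acp5 was detected in only 4 of the 7 resistant tumours. Of 11 scavenger and haem handling genes, 1 was above and 2 below, with a median of -0.12. Hmox1, haem oxygenase (-1.38, limma adjusted p = 0.673), and Slc40a1, the iron exporter ferroportin (-1.98), were the 2 below, and Scarb2 was below in 6 of 7 (-0.57). The 1 above, Hpx, named after its value was seen, was detected in 1 resistant tumour and not in the control.

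Of 12 macrophage activation genes, 1 was above in all 7 and 3 below (13.3% and 17% of all genes were), with a median of -0.59. Of the 3 below, Cd80 was detected in only 1 resistant tumour. Apoe, a lipid carrier, read 12.84 ± 0.53 in resistant tumours and 11.48 in the control, 1.37 higher with 7 of 7 above (limma adjusted p = 0.545). Il1rn, the interleukin-1 receptor antagonist, read 6.12 ± 0.74 in resistant tumours and 8.28 in the control, a difference of -2.16 (limma adjusted p = 0.44). Il6, detected in the control only, was at least 1.27-fold lower (limma adjusted p = 0.476), and Cd80, named after its value was seen, differed by -0.74 (limma adjusted p = 0.603).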

How the data were processed

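Total RNA from 7 resistant tumours and 1 control was labelled with biotin and read on bead arrays, per the labels' protocols. The authors deposited raw linear intensity per probe, each with a detection p-value, and a table of normalized intensity, used only as an alternative. The submitters' processing notes name GenomeStudio without a version. Of 25697 probes, 23978 had 1 symbol, 0 several and 1719 none, and 23962 were matched to RefSeq by gene ID. limma's neqc (background from the detection p-values, offset 16, quantile, log2) was followed by a filter of detection p under 0.05 on at least 1 array (15067 probes, 14190 named). A gene was read by its detected probe with the highest mean.

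Resistant and control tumours were compared with limma's lmFit and eBayes, Benjamini-Hochberg adjusted over 10461 genes, two-sided. The members, lists and tests were chosen with earlier results of these data known. Named genes were all members, the 3 genes per list with the smallest limma p, other cell types by summed or mean level, and the genes most like a member over the resistant tumours (6 for C1q, 4 for others); Cx3cl1, Il34, Lyz1, Nras and Cxcr2 were named for their relation to a member or a count. The test was checked on simulated data. Alternatives covered background, normalization, the deposited values, filters, the probe rule, the variance trend and leaving out each tumour. The columns name no chip, so no batch could be tested. R 4.3.3 and limma 3.58.1 were used.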

Additional observations from a re-analysis of the deposited data

Results flagged for a closer look

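Among 56 sets of levels in the 7 resistant tumours (the members, the C1q mean and the listed genes named), 7 had 1 tumour whose gap to its nearest neighbour, as a share of the whole range, passed Dixon's 95% limit for 7 values, and chance passes it in about 1 in 20 groups. C2 in tumour 3, at 12.89, had a share of 0.587. Vtn in tumour 1, at 7.10, had 0.582. The T cell gene Cd3d in tumour 1, at 10.12, had 0.607. The fibroblast marker Pdgfra in tumour 6, at 9.79, had 0.842. Ednrb, an endothelin receptor gene, had 0.681 in tumour 5, at 8.76. The haemoglobin genes Hba-a1 and Hbb-b2 in tumour 6, at 7.07 and 4.66, had 0.728 and 0.628. No member gene passed the limit.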

How the results depend on the processing

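All 89 alternative values of the members' differences kept their sign, and 6 moved by more than 1 SD of the resistant tumours: Cx3cr1 at 2.89 without background correction and 2.89 with the deposited values, C1qb at 0.47 and C1qc at 0.96 under median scaling, and Lyz2 at 1.43 as the mean of its detected probes and 0.36 on its other probe, an alternative chosen after seeing the data. Much of the agreement in sign was fixed in advance. For the 6 members above the control in all 7 resistant tumours, leaving out a tumour could not change it. For members with 1 detected probe, the mean over detected probes repeats the main value. The kept signs are therefore no check of the differences. Leaving out each tumour in turn gave 1 to 8 genes higher (main 1), 5 to 50 lower (main 22), 0 to 1 list genes (main 0) and 0 to 4 correlated pairs (main 2). The list gene was Il10, without tumour 1 (limma adjusted p = 0.0126, and 0.702 with all 7; of the resistant tumours it was detected in 1). Genes higher numbered 4 with no detection filter and 4 with an intensity trend. Genes lower numbered 8 without background correction, 8 with the deposited values, 35 with no filter and 1 when detection on all 8 arrays was required. With the trend 1 list gene passed, Cxcr2 (limma adjusted p = 0.0434, up to 0.201 over the other alternatives that measured it). Under median scaling 1 pair passed, Cx3cr1 with Cd14. The causes of these shifts were not tested. No paired analysis was possible because the single control has no replicate to pair. The control's level near the detection limit bounds how finely the fold of Cx3cr1 is known, and 1 control gives no spread of its own.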

Other observations

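Markers of the other cells a tumour can hold lay on both sides of the control, and none of their genes passed limma's test. Of 9 neutrophil markers measured, S100a9 and Cxcr2 were below the control in all 7 resistant tumours and Mpo and Elane above it. Mpo and Elane were each detected in only 2 resistant tumours and not in the control. The list had a median difference of 0.13 and a mean log2 level of 5.91 to 7.21 in resistant tumours and 6.95 in the control. Of 7 dendritic and Langerhans markers, Siglech (-1.75) and Ccr7 (-0.49) were below in all 7. Itgae (1.33) and Cd207, the Langerhans cell lectin, detected in 6 resistant tumours and not in the control, were above in all 7. The mean log2 level of this list was 5.40 to 6.60 in resistant tumours and 5.65 in the control. Of 9 endothelial markers, Esam (-1.45), Vwf (-1.06) and Flt1 (-0.87) were below in all 7 and Cdh5 (-0.68) in 6. Kdr was above in all 7, detected in 5 resistant tumours and not in the control, and Pecam1 and Eng were each above in 6. The mean log2 level of the 9 markers was 7.90 to 8.65 in resistant tumours and 8.40 in the control. Of 10 fibroblast markers, Thy1 (-3.10) and Col3a1 (-1.68) were below in all 7 and Col1a1 (-0.85) in 6. Fap, Dpt and Mfap5 were each above in 6, and the mean log2 level of the list was 8.84 to 10.70 in resistant tumours and 10.27 in the control. Genes of these lists were named after their values were seen.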
